A study of Canis lupus familiaris with 28 samples.

Results

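The transcripts described here are 53 of the 29884 Ensembl dog transcripts counted in TR-T10 cells, chosen by their measured levels: the read share was lower in the libraries labelled YAP5SA than in wild-type cells while it stayed close to wild type in the other confluent knockdown libraries of the same experiment. The choice used L, the log2 of a group's mean CPM plus 1, where CPM is a transcript's share of the reads assigned to transcripts, scaled to a common library total. A member had to have L at least 0.8 below wild type in the YAP5SA libraries, within 0.4 of wild type in double knockdown cells and in double knockdown cells with YAP5SA+S94A, and within 0.7 between confluent p190A and p190B knockdown cells. The fall alone held for 428 transcripts. The double knockdown limit left 100 of them, the S94A limit 64 and the last limit 53. The mirror rule for transcripts raised by 0.8 gives 101.

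The study examined how the proteins p190A and p190B act on YAP-driven transcription when cells touch. TR-T10 cells are dog cells, and their introduced constructs are under a tetracycline repressor. Experiment 1 held wild-type cells and cells with a p190A shRNA, a p190B shRNA or both, each confluent and sub-confluent, with 2 libraries in each of 8 groups. Experiment 2 held confluent cells in 4 groups: wild type, double knockdown, double knockdown with YAP5SA+S94A (3 libraries each), and YAP5SA. The label fields conflict on this last group, since one gives YAP5SA expression alone and the other adds both shRNAs, so it is called the libraries labelled YAP5SA. The 3 YAP5SA files gave 2 libraries, because files 4 and 5 were identical, and libraries 4 and 6 were used. Titles of all 3 YAP5SA files end in the letter C, while those of each other group of experiment 2 end in A, B and C. It is therefore not known whether libraries 4 and 6 are separate samples. Knockdown was induced with 4 µg/ml doxycycline for 3 days before replating for 3 to 5 days, per the labels' protocols. The sources used here do not say whether wild-type cells also received doxycycline. Modified lines came from viral transduction and drug selection, the double knockdown line from p190B knockdown cells, and the sources used here do not say whether a line is a clone or a pool. In double knockdown cells the YAP form and both shRNAs are induced together.

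YAP1 is the coactivator at the end of the Hippo pathway. When epithelial cells touch, LATS kinases phosphorylate it and it leaves the nucleus. In YAP5SA the serines that LATS phosphorylates are changed to alanine, so the protein stays active, and the added S94A change removes its binding to TEAD, the DNA-binding partner through which YAP both activates and represses genes. p190A and p190B are encoded by ARHGAP35 and ARHGAP5.

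The deposited files give transcript identifiers with no gene names, and none of them matched the 43286 dog genes of the reference table (0 matches). No gene, pathway or function can therefore be given for any member, and the knockdown and YAP labels could not be checked against their target genes. Of the members, 2 are printed by identifier for their fall and 2 for a rise at confluence. The others are called by their rank of fall, from 1 (largest) to 53, and those given with values were picked after their values had been seen. In bulk RNA a lower CPM may come from fewer cells with a transcript or from less RNA per cell, and these cannot be told apart.

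Libraries held 10706716 to 17215544 reads assigned to transcripts. The 100 transcripts with most reads took 19.8% to 20.2% of them in wild-type and 20.6% to 21.2% in YAP5SA libraries of experiment 2. The smallest count of a member in a YAP5SA library was 2 reads (rank 32), and 6 members had under 30 reads in at least 1 of these libraries, so their falls carry most counting error. The labels name no separate cultures for the replicates, and p-values therefore cover only sample-to-sample spread, which may be technical.

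In experiment 2 the members together took 3468 and 3919 CPM in YAP5SA libraries 4 and 6. They took 7677, 7726 and 7832 CPM in wild type, 6874 to 7393 in double knockdown cells and 7592 to 8028 in double knockdown cells with YAP5SA+S94A. The members of rank 8 and 12 supplied 38.98% to 47.3% of these sums. Without those, the sums were 2116 and 2190 CPM in YAP5SA libraries and 4025 to 4379 in the other 9 libraries of the experiment. All these values come from contrasts that chose the members and are a description only.

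The members spanned a wide range of abundance. In wild type of experiment 2, 4 were under 5 CPM, 5 between 5 and 10, 27 between 10 and 100, 15 between 100 and 1000, and 2 above. Rank 8 was at 596 and 624 CPM in the YAP5SA libraries and at 1421, 1409 and 1409 CPM in wild type. It was at 1101 to 1305 CPM with both shRNAs, 1477 to 1502 CPM with YAP5SA+S94A, and 1243 to 2695 CPM in experiment 1, so that both YAP5SA libraries were the lowest of all. Rank 12 was at 756 and 1105 CPM in the YAP5SA libraries, which were less alike, and at 1900, 1938 and 2116 CPM in wild type. In experiment 1 its lowest library had 1476 CPM, and replicate 1 was above replicate 2 in all 4 confluent groups, as at 2461 and 1553 CPM in wild type.

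The falls were mostly close to the limit. The L difference between YAP5SA libraries and wild type ran from -2.17 to -0.80 with a median of -0.94, against a median of -0.07 over the 11904 transcripts with a mean of at least 1 CPM. Only 2 members fell by at least 2 on this scale and 3 by at least 1.5, while 33 lay between 0.8 and 1. The member nearest to the limit stood at -0.802, and the nearest transcript that met the other limits but missed this one stood at -0.797. The rule used the mean of the 2 YAP5SA libraries, so their separate falls are a description and do not replicate the fall. All 53 differences were below 0 in each, from -2.19 to -0.71 in library 4 and from -2.17 to -0.56 in library 6. In 42 members each library taken alone was at or past -0.8. In all 53, both YAP5SA libraries lay below each of the other 9 libraries of experiment 2, as they did in 17.9% of the 11904 transcripts, a count that the rule largely fixes.

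**Figure D1:**
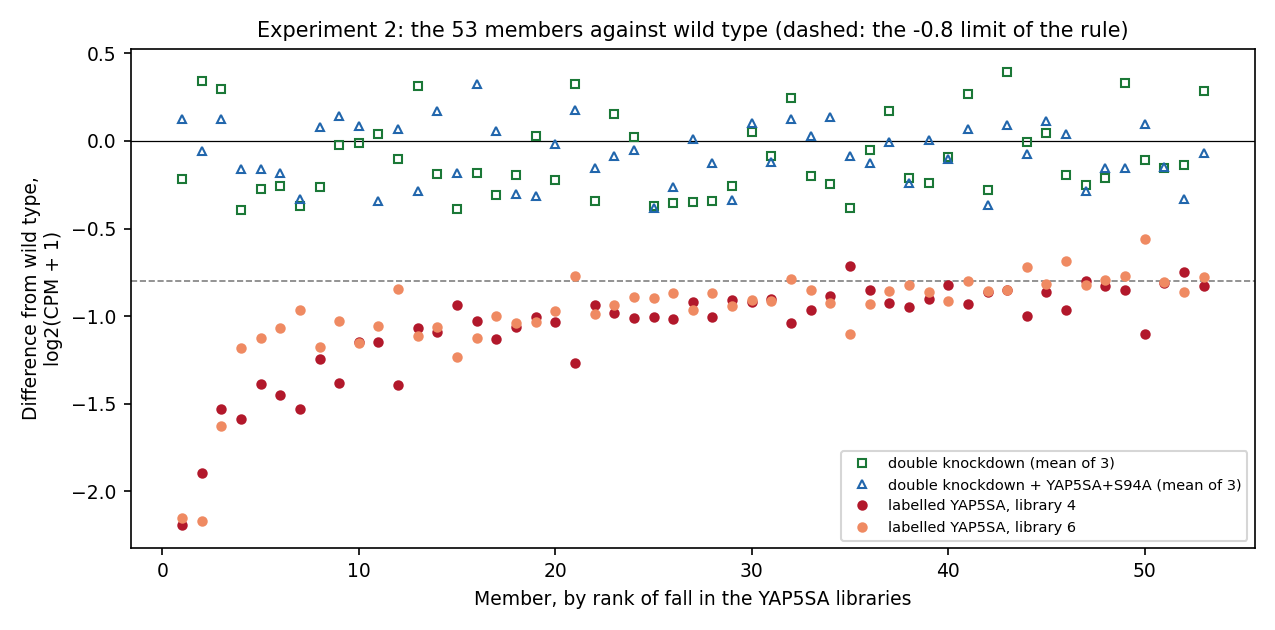
Difference in log2(CPM + 1) from wild type of experiment 2 for each of the 53 members, ordered by rank of fall. Filled circles are the YAP5SA libraries 4 and 6, open squares the double knockdown mean and open triangles the mean with YAP5SA+S94A; the latter lie within 0.4 of wild type by choice, and the circles lie between -2.19 and -0.56.

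Inside the limits, the other groups of experiment 2 lay on both sides of wild type. The double knockdown lay below wild type in 37 of 53 members, with a median L difference of -0.18 and a range from -0.40 to 0.39. Over the 11904 transcripts it lay below in 6441, with a median of -0.05. Double knockdown with YAP5SA+S94A lay below in 32 members, with a median of -0.07 and a range from -0.38 to 0.32. Over the 11904 transcripts it lay below in 7009, with the same median of -0.07. The rule limited both contrasts, so these values are a description only. L in the YAP5SA libraries differed from the S94A libraries by -2.298 to -0.47 and from the double knockdown by -2.37 to -0.51. The double knockdown difference of largest size kept was 0.397 and the next one outside was 0.417. For S94A these were 0.380 and 0.406, and between p190A and p190B knockdown 0.690 and 0.796.

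Transcript ENSCAFT00000027439 had the largest fall. It was at 32.0 and 32.9 CPM in the YAP5SA libraries, from 397 and 516 reads. Wild type of experiment 2 had 145.2, 155 and 149 CPM, double knockdown 119, 132 and 135 CPM, and double knockdown with YAP5SA+S94A 169, 157 and 164 CPM. The YAP5SA values lay below the other 3 groups, as the rule required, and the double knockdown libraries lay below those with YAP5SA+S94A without overlap. In experiment 1, confluent libraries had 97.1 and 96.2 CPM in wild type, 89.3 and 94.2 with the p190A shRNA, 95.8 and 128 with the p190B shRNA, and 96.5 and 121 with both. Sub-confluent libraries had 130.2 and 122 CPM in wild type, 83.5 and 71.6 with the p190A shRNA, 141 and 122 with the p190B shRNA, and 104 and 59.3 with both. No library of experiment 1 reached the YAP5SA level. In sub-confluent cells its double knockdown level fell against wild type (-0.67 in log2, SE 0.20, edgeR adjusted p = 0.018), but not without sub-confluent wild-type replicate 1 (adjusted p = 8.6e-02) or double knockdown replicate 2 (-0.34, adjusted p = 1.8e-01), nor in a fit of only the compared groups (adjusted p = 7.5e-02).

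Transcript ENSCAFT00000015117 had the second largest fall and an unlike pattern in experiment 1. In experiment 2 it was at 18.9 and 15.5 CPM in the YAP5SA libraries, 76.7, 68.5 and 74.1 CPM in wild type, 79.4, 96.9 and 103 CPM in double knockdown cells and 72.7, 71.5 and 66.7 CPM with YAP5SA+S94A. In experiment 1, confluent wild-type cells had 124 and 234 CPM. Confluent cells had 3.87 and 9.92 CPM with the p190A shRNA, 4.13 and 6.27 CPM with the p190B shRNA, and 2.80 and 4.42 CPM with both. The wild-type and knockdown libraries did not overlap, and every knockdown library of experiment 1 lay below both YAP5SA libraries. Sub-confluent wild-type cells had 13.3 and 17.9 CPM, and the 6 sub-confluent knockdown libraries 0.755 to 1.87 CPM, from 13 to 27 reads.

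By edgeR's quasi-likelihood test, ENSCAFT00000015117 fell with both shRNAs at confluence (-5.59 in log2, SE 0.44, adjusted p = 1.1e-06), with the p190A shRNA (-4.68, SE 0.41, adjusted p = 1.5e-05) and with the p190B shRNA (-5.05, SE 0.42, adjusted p = 5.9e-06). It also fell with both shRNAs in sub-confluent cells (-4.00, SE 0.52, adjusted p = 6.9e-05), and rose at confluence in wild-type cells (3.45, SE 0.38, adjusted p = 3.0e-04). Each of these calls held with any single library left out. In the double knockdown libraries of experiment 2 it was 0.34 above wild type in L, where the rule required a small difference.

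**Figure D2:**
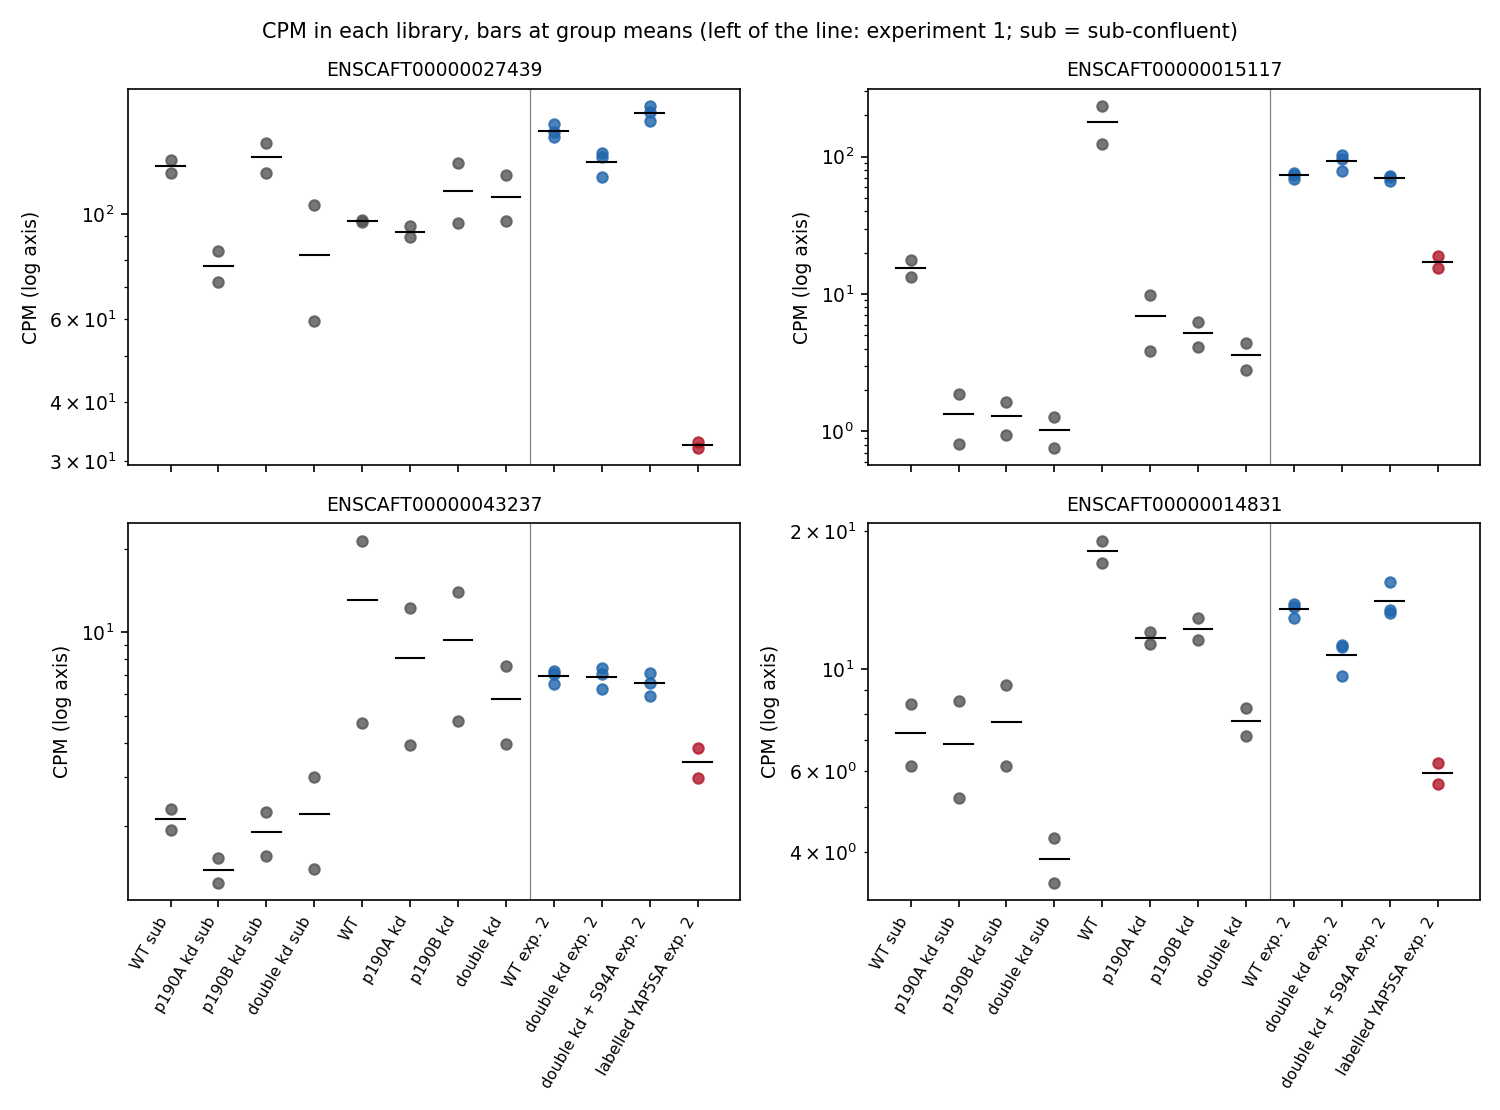
CPM on a log axis in every library for the 4 transcripts printed by identifier, with bars at group means, experiment 1 to the left of the line and experiment 2 to the right. The YAP5SA points (red) are the lowest of all libraries for ENSCAFT00000027439, but lie above all knockdown libraries of experiment 1 for ENSCAFT00000015117.

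Across all 12 groups the YAP5SA group had the lowest L in 37 of the 53 members, the second lowest in 6 and the third lowest in 4, leaving 6 members with at least 3 groups below it. In 31 members both YAP5SA libraries lay below all of the other 25 libraries, against 6.48% of the 11904 transcripts, again a description since these libraries chose the members. Among the 16 members with another group lowest, that group was sub-confluent in 12, most often sub-confluent double knockdown cells (8 members). The labels name 2 separate experiments, so an order of levels across them also holds any difference between experiments. Confluent wild-type cells of experiment 1 were within 0.4 of those of experiment 2 in L for 36 members, beside 69.4% of the 11904 transcripts. The widest gaps were -1.54 (rank 13) and 1.28 (rank 2, ENSCAFT00000015117).

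**Figure D3:**
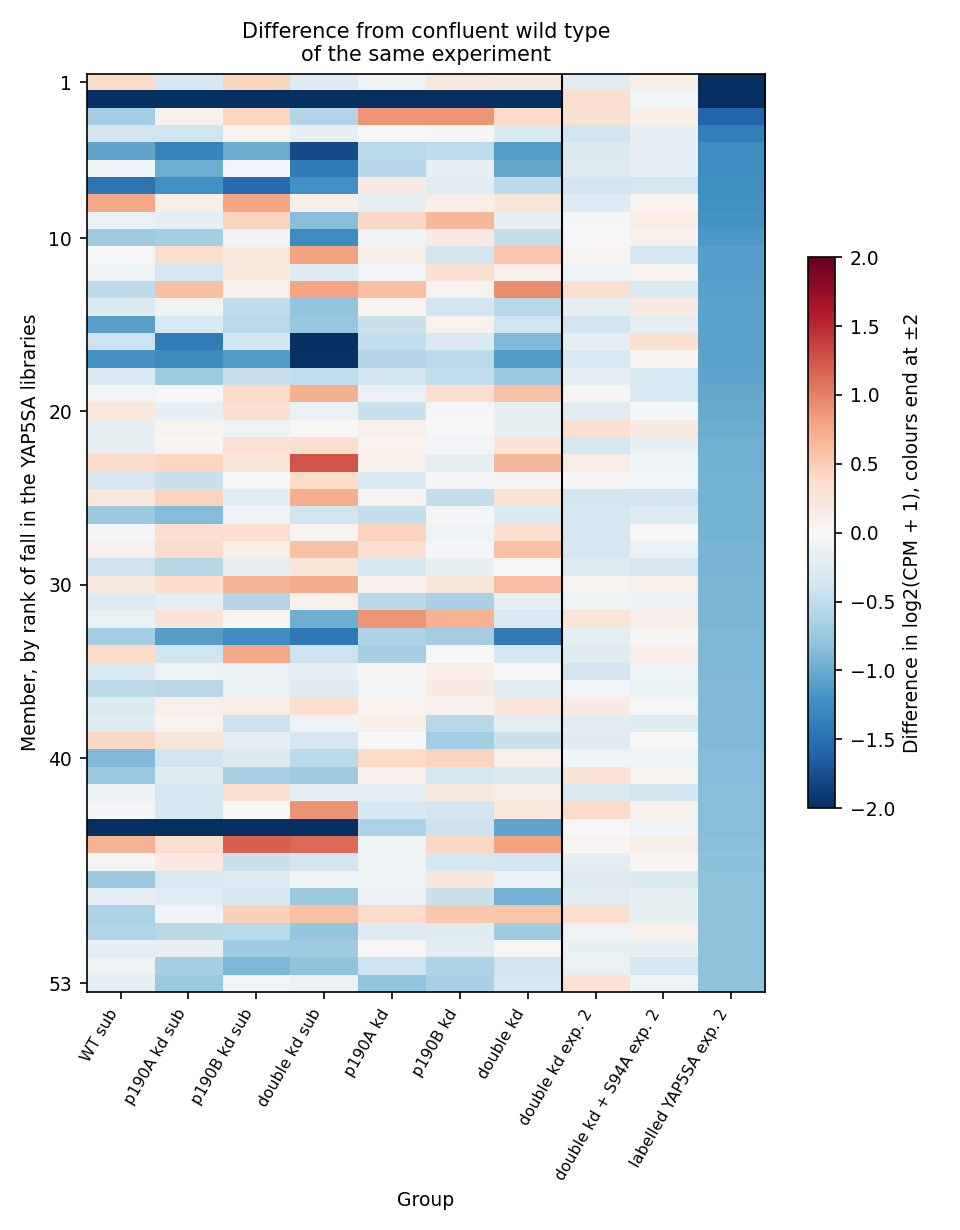
Difference in log2(CPM + 1) from confluent wild type of the same experiment for the 53 members (rows, by rank of fall) in 10 groups (columns; kd is knockdown, sub is sub-confluent), with colours ending at 2 in either direction. The YAP5SA column is low throughout by choice, while the columns of experiment 1 hold both higher and lower members, with ranks 2 and 44 among several members low in all 4 sub-confluent groups.

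The first question put to libraries that the rule had not used was whether members kept close to wild type in the double knockdown of experiment 1, as they did by choice in experiment 2. At confluence, 31 of 53 members had an L difference under 0.4 in size, beside 52.1% of the 11904 transcripts. Another 8 were at or below -0.8 (11.5% of all) and 2 at or above 0.8 (8.19% of all). The shares under 0.4 in size and at or below -0.8 are near those of all transcripts. The share at or above 0.8 is lower than that of all, but rests on 2 members. The members' differences in experiment 1 ran from -5.29 to 0.93 in L.

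**Figure D4:**
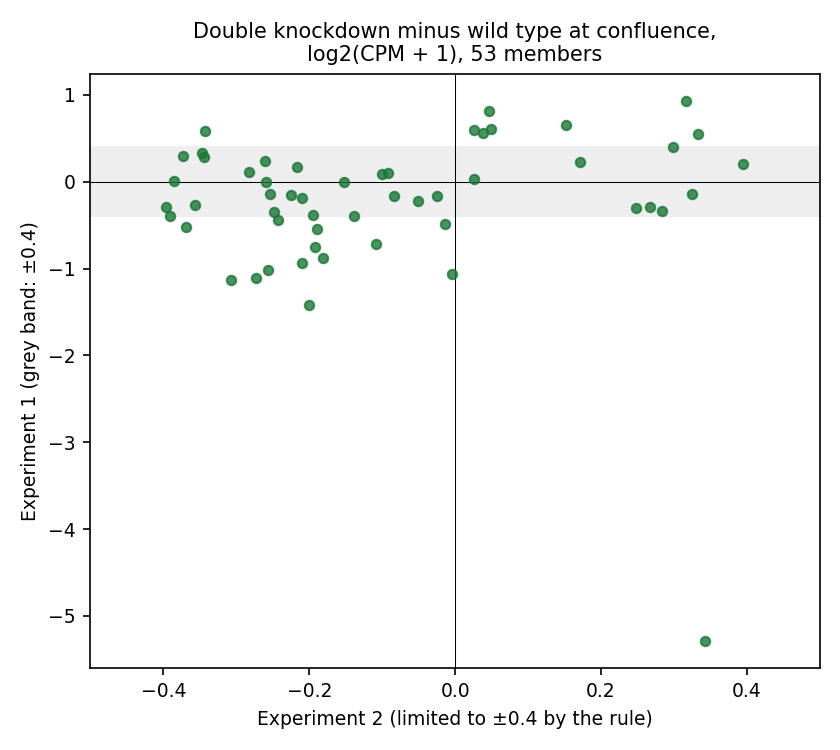
Difference between double knockdown and wild-type cells at confluence in log2(CPM + 1), experiment 2 on the horizontal axis and experiment 1 on the vertical axis, one point per member. The horizontal spread is limited to 0.4 by the rule, while 22 of 53 points lie outside the grey band of 0.4 in experiment 1, the lowest at -5.29 (ENSCAFT00000015117).

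All 53 members passed the filter on low counts in experiment 1 and were tested. In edgeR's test of confluent double knockdown against wild-type cells, 8 rose, 12 fell and 33 did not pass (adjusted p under 0.05), beside 21.9% rising and 21.6% falling (43.6% in all) among all 12845 transcripts tested. The median log2 fold change was -0.14 over the members and -0.02 over all. Of the called members, 6 changed at least 2-fold, and the share of all transcripts at this size was not counted. Leaving out double knockdown replicate 1 gave 7 higher and 8 lower.

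The member of rank 16 was among those that fell. It had 98.1 and 102 CPM in confluent wild-type and 52.1 and 55.5 CPM in confluent double knockdown cells, and the p190A and p190B knockdown libraries lay between, at 70.5 to 83.3 CPM. In sub-confluent cells it was at 57.6 and 91.5 CPM in wild type and 25.1 and 19.9 CPM with both shRNAs. It fell at confluence (-0.88 in log2, SE 0.17, adjusted p = 9.9e-04) and in sub-confluent cells (-1.77, SE 0.18, adjusted p = 7.8e-06). Its YAP5SA values, 91.6 and 85.6 CPM, were above every double knockdown library of experiment 1. They were below the 182 to 199 CPM of wild type and the 159 to 169 CPM of double knockdown in experiment 2. Its confluent wild type differed by -0.90 in L, experiment 1 minus experiment 2, so levels across experiments also hold that difference.

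The member of rank 13 went the other way. It had 8.87 and 8.80 CPM in confluent wild-type and 20.1 and 15.5 CPM in confluent double knockdown cells, and 5.98 and 5.66 against 19.9 and 12.02 CPM in sub-confluent ones. Groups did not overlap at either density, and the rise was 1.03 (log2 fold change, SE 0.23, adjusted p = 0.0031) at confluence and 1.41 (SE 0.24, adjusted p = 5.6e-04) in sub-confluent cells. In experiment 2 its levels were 26.7 to 28.4 CPM in wild type, 34.1 to 35.4 CPM with both shRNAs, 21.9 to 22.9 CPM with YAP5SA+S94A and 12.6 and 12.2 CPM in the YAP5SA libraries. The YAP5SA values thus lay above wild type of experiment 1 and below wild type of experiment 2.

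In sub-confluent cells the double knockdown changed 31 of the 53 members against wild type, 12 upward and 19 downward, beside 16.7% and 18.1% (34.8% in all) of all transcripts tested. Of these changes, 8 were at least 2-fold, with the share of all transcripts at this size again not counted. The median log2 fold change was 0.03 over the members and 0.01 over all. Rank 49 rose from 27.4 and 18.99 CPM in wild type to 58.1 and 52.6 CPM with both shRNAs (log2 fold change 1.22, SE 0.16, adjusted p = 7.8e-05). The calls depended on single libraries: there were 8 higher and 7 lower without double knockdown replicate 2, 10 and 10 without wild-type replicate 1, and 10 and 10 without wild-type replicate 2. Members had a median mean level of 43.4 CPM against 28.2 CPM for the 11904 transcripts, and the part of this difference in the counts was not tested.

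At confluence, with the p190A shRNA 1 member rose and 6 fell (6.51% and 6.94% of all transcripts, 13.5% in all), and with the p190B shRNA 2 rose and 5 fell (7.04% and 5.64%, 12.7% in all). The 7 members called in each comparison are a share near that of all transcripts. Higher and lower calls were 6 and 8 (p190A shRNA) and 7 and 8 (p190B shRNA) without the filter on low counts. They were 7 and 11 and 4 and 9 with only the compared groups fitted. A replicate block within density also called more members than the main fit, as given in the last section. Shares of all transcripts in these other fits are not given here, so their counts do not show an excess among members. The rule held these 2 groups within 0.7 of each other, and both are compared with the same wild-type libraries, so the comparisons are not separate. Apart from ENSCAFT00000015117, no called member changed 2-fold with a single shRNA. The member of rank 3 rose with the p190B shRNA, from 158 and 176 CPM in wild type to 304 and 313 CPM (log2 fold change 0.93, SE 0.18, adjusted p = 0.0038). It was at 286 and 329 CPM with the p190A shRNA, 215 and 224 CPM with both, and 48.1 and 44.9 CPM in the YAP5SA libraries, the lowest of all. It was also the 1 member called higher with the p190A shRNA (0.90 in log2, SE 0.18, adjusted p = 0.0052), a call lost without wild-type replicate 1 (adjusted p = 5.4e-02) or p190A replicate 2 (adjusted p = 5.5e-02). Calls with the p190A shRNA became 0 higher and 1 lower without wild-type replicate 1 and without p190A replicate 2, 1 and 2 without wild-type replicate 2, 1 and 1 without p190A replicate 1, and 2 and 7 without sub-confluent p190A replicate 2. Calls with the p190B shRNA became 1 and 2 without wild-type replicate 1 and without p190B replicate 1, 1 and 4 without p190B replicate 2, and 5 and 6 without sub-confluent p190A replicate 2, which enters through the shared estimate of the spread.

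Over these 4 knockdown comparisons, 24 members were called lower in at least 1, beside 29.3% of all transcripts, and 15 were called higher in at least 1, beside 30.5%. A fall confined to the YAP5SA libraries was imposed in experiment 2, and in experiment 1 these 24 also had a called fall against wild type. Some of these calls depended on single libraries. A called fall also need not reach the YAP5SA level, as for ENSCAFT00000027439. A further count gave 11 members called in none of the 7 comparisons tested in experiment 1, beside 36.5% of all transcripts.

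The comparison of densities asked whether the members respond to cell contact, which is known to restrain YAP. In wild-type cells 12 members were higher at confluence and 4 lower, beside 14.3% and 15.0% (29.3% in all) of all transcripts tested. The median log2 fold change was 0.18 over the members and 0.01 over all, and 38 of 53 members lay above 0. The number of all transcripts tested above 0 was not counted. Fewer members were called when any single wild-type library was left out. The share of all transcripts called in those fits is not given here, so this drop also cannot be read as particular to the members.

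Transcript ENSCAFT00000043237 rose at confluence (2.56 in log2, SE 0.74, adjusted p = 0.021), but on uneven libraries. It had 21.5 and 4.71 CPM in confluent and 2.29 and 1.94 CPM in sub-confluent wild-type cells. Replicate 1 was also the higher one in confluent p190A knockdown (12.3 and 3.93 CPM), p190B knockdown (14.0 and 4.78 CPM) and double knockdown cells (7.56 and 3.96 CPM), and the part of this replicate difference in the result was not tested. Without confluent wild-type replicate 1 the log2 fold change was 1.09 (adjusted p = 3.3e-01). The call was also lost without sub-confluent wild-type replicate 1 (adjusted p = 8.1e-02) or 2 (adjusted p = 1.3e-01), without sub-confluent p190A replicate 2 (adjusted p = 5.7e-02) and with only the compared groups fitted (adjusted p = 1.4e-01). In experiment 2 it was at 2.98 and 3.83 CPM in the YAP5SA libraries and 5.92 to 7.43 CPM in the other 9.

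Transcript ENSCAFT00000014831 rose at confluence from 6.14 and 8.39 to 17.1 and 19.1 CPM in wild-type cells (log2 fold change 1.25, SE 0.24, adjusted p = 0.003), with no overlap. With both shRNAs it fell at confluence to 7.15 and 8.25 CPM (log2 fold change -1.21, SE 0.24, adjusted p = 0.0013). It also fell in sub-confluent double knockdown cells, to 4.29 and 3.43 CPM (-0.96, SE 0.26, adjusted p = 0.012), a call lost without wild-type replicate 2 (-0.71, adjusted p = 1.2e-01) or double knockdown replicate 2 (-0.83, adjusted p = 9.8e-02). In experiment 2 it was at 5.63 and 6.25 CPM in the YAP5SA libraries, 12.97 to 13.9 CPM in wild type, 9.69 to 11.3 CPM with both shRNAs and 13.2 to 15.5 CPM with YAP5SA+S94A. Its YAP5SA values were thus near those of sub-confluent wild-type cells and of confluent double knockdown cells in experiment 1.

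In double knockdown cells 3 members were higher at confluence and 1 lower, beside 0.911% and 0.895% (1.81% in all) of all transcripts tested. No call held with every library left out in turn. There were 0 higher and 0 lower without confluent replicate 1 or sub-confluent replicate 2, 0 and 1 without confluent replicate 2, 5 and 2 without sub-confluent replicate 1, and 7 and 2 without sub-confluent p190A replicate 2. The median log2 fold change was 0.07 over the members and 0.01 over all. On the L scale, as a description, the median difference between densities was 0.24 in wild type (42 members above 0), 0.16 with the p190A shRNA (35 above 0), 0.02 with the p190B shRNA (27 above 0) and 0.06 with both (30 above 0). Over the 11904 transcripts the same medians were 0.06 (6528 above 0), 0.02 (6291), 0.03 (6457) and 0.01 (6180). CPM carries no TMM scaling, and with it the wild-type values were the 38 members above 0 and the median of 0.18 given before.

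The difference between these responses was tested as an interaction. No member was called for a more positive response with both shRNAs than in wild type (2.42% of all transcripts; DESeq2 called 2), and 2 were called for a more negative one (0.849% of all, and 3.27% for either direction). At unadjusted p under 0.05 there were 13 members in either direction. The share of all transcripts at that limit was not counted, so this number cannot be read as many or few. The median interaction was -0.19 over the members and 0.00 over all. The 2 calls became 0 without either wild-type confluent or wild-type sub-confluent replicate, or without confluent replicate 1 or sub-confluent replicate 2 of the double knockdown, and 1 without either of its other replicates. Calls of a more positive response became 1 without sub-confluent wild-type replicate 1, and 2 without sub-confluent double knockdown replicate 1 or sub-confluent p190A replicate 2.

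**Figure D5:**
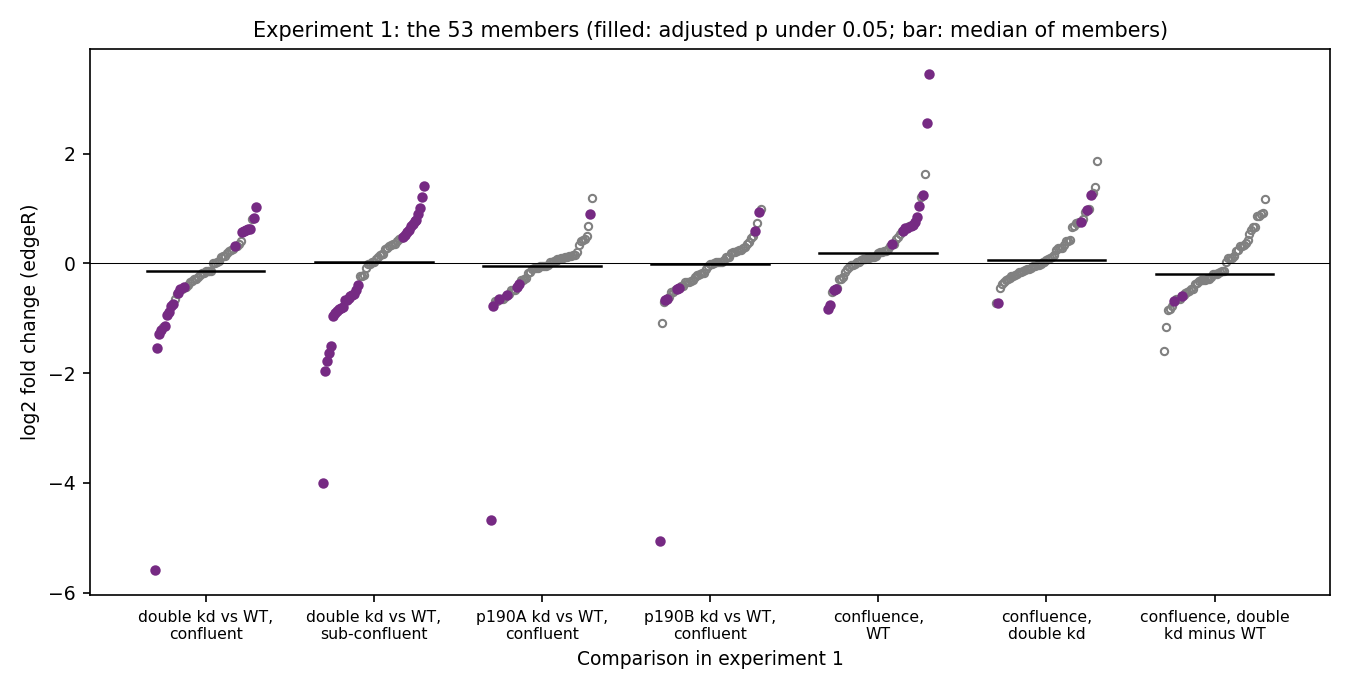
Log2 fold changes of the 53 members in the 7 comparisons of experiment 1, each sorted within its column (kd is knockdown). Filled points passed edgeR's test at adjusted p under 0.05 and bars are member medians, from -0.19 for the interaction to 0.18 for confluence in wild-type cells; the lowest point of each of the 4 knockdown comparisons is ENSCAFT00000015117.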

How the data were processed

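TruSeq mRNA libraries of 28 samples were sequenced as single reads, per the labels' protocols. Build CanFam3.1, DESeq2 1.4.5, HTSeq 0.6.0 and STAR 2.3.1n stand in the submitters' processing notes, without roles. The authors deposited 1 table of raw counts per sample for 29884 transcripts plus 5 summary rows, left out here. Of uniquely aligned reads, 20.3% to 23.1% were in the ambiguous row, so overlapping transcripts are measured from part of their reads. The sources used here do not say if strand was used.

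CPM used the total over transcripts. Experiment 1 was fitted with edgeR 4.0.16 in R 4.3.3 over 12845 transcripts and 8 group means of 16 libraries (filterByExpr, TMM, robust quasi-likelihood F-tests, Benjamini-Hochberg adjustment), and the code was tested on simulated data. DESeq2 1.42.0, no filter, a replicate block, only the compared groups, and leaving out each library were alternatives. Experiment 2 got no test because it chose the members. The members and tests were chosen with earlier results of these data known. Printed identifiers, at a mean of at least 5 CPM, were the 2 members with the largest fall and the 2 others with the largest called rise at confluence in wild-type cells. Fixed gene lists could not be run without names.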

Additional observations from a re-analysis of the deposited data

Results flagged for a closer look

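Transcript ENSCAFT00000015117 moved in opposite directions with the double knockdown in the 2 experiments. Its L difference from confluent wild type was -5.29 in experiment 1, with both knockdown libraries below wild type, and 0.34 in experiment 2, with all 3 above. The difference between experiments was not tested, because the rule used the second one.

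For the members of rank 43 and 29, the response to confluence with both shRNAs differed from that in wild type. The interaction was -0.68 for rank 43 (edgeR adjusted p = 0.049) and -0.59 for rank 29 (adjusted p = 0.04). The member of rank 43 was at 94.3 and 126 CPM in confluent and 179 and 179.5 CPM in sub-confluent double knockdown cells, against 99.0 and 92.0 CPM and 88.7 and 98.1 CPM in wild type. The member of rank 29 was at 117 and 125 CPM and at 134 and 148 CPM in double knockdown cells, against 120.4 and 121 CPM and 88.9 and 91.3 CPM in wild type. Neither call held with each library of the 4 groups left out in turn.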

How the results depend on the processing

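The number of members, 53, was 20 with a fall of at least 1.0. It was 47 with TMM-scaled CPM, of which 37 were among the 53, and 47 to 91 with 1 library left out, the highest without YAP5SA library 6 (91, including 50 of the 53). A pseudocount of 0.5 or 2 gave 74 or 44.

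With DESeq2, members called higher and lower at confluence in double knockdown cells were 6 and 2, those with a more positive interaction 2, and those higher with the p190A shRNA 2. Without the filter, higher and lower calls were 11 and 2 for confluence in double knockdown cells and 7 and 8 for the p190B shRNA, with 3 more positive interactions and 6 higher with the p190A shRNA. With only the compared groups, 0 members were lower at confluence in double knockdown cells and 1 had a more negative interaction, and higher and lower calls were 7 and 11 (p190A shRNA) and 4 and 9 (p190B shRNA).

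With a replicate block within density, higher and lower calls were 17 and 7 for confluence in wild type, 10 and 2 for confluence in double knockdown cells, 3 and 4 for the interaction, 7 and 10 for the p190A shRNA and 6 and 10 for the p190B shRNA. Shares of all transcripts are given for the main fit only, so counts under any alternative do not show an excess or a lack among members. For confluence, this block takes replicate spread within each density out of the error, although it still enters a difference between densities. Deviations of libraries with 1 number correlated positively within a density (r over transcripts 0.142 to 0.537). Across densities r was negative or near 0 (-0.200 to 0.026). The labels do not say what the numbers share, and with 2 per group they were not taken as pairs.

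With 1 library left out, higher and lower calls ranged from 5 to 13 and 1 to 5 for confluence in wild type, 0 to 7 and 0 to 2 in double knockdown cells, 0 to 2 and 0 to 2 for the interaction, 6 to 10 and 8 to 13 for the confluent and 8 to 14 and 7 to 19 for the sub-confluent double knockdown, 0 to 2 and 1 to 7 for the p190A shRNA and 1 to 5 and 2 to 6 for the p190B shRNA. No value of the 4 printed transcripts reversed. Leaving out sub-confluent p190A replicate 2 from all comparisons was chosen after seeing the data.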
